A study of Mus musculus with 6 samples.

Results

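Usp10 and 9 genes whose proteins act with it in stress granules were followed across kidney RNA of 6 newborn mice, 3 labelled Usp10 knockout (KO) and 3 labelled wild type (WT). The members were every array probe whose accession belongs to Usp10, G3bp1, G3bp2, Caprin1, Tia1, Tial1, Atxn2, Pabpc1, Ubap2l or Fmr1. They came to 19 probes of 10 genes, among 39429 probes and 20659 named genes on the array. All 19 were well above background on all 6 arrays, so each was tested. Both groups were kidney tissue of neonates labelled male, taken about 6 hours after birth, with 1 single-colour Agilent array per neonate. The sources used here do not give the deleted part of Usp10, the cells in which it was deleted, the strain or the litters. In whole tissue, fewer cells of a type and less RNA per cell cannot be told apart.

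Stress granules are cytoplasmic assemblies of mRNA and protein that form when translation initiation stalls, for example after eIF2 alpha is phosphorylated. G3BP1 and G3BP2 bind RNA and nucleate the granules. Caprin-1 and USP10 bind the same surface of G3BP, Caprin-1 favouring assembly and USP10 opposing it. USP10 is also a deubiquitinating enzyme that removes ubiquitin from proteins such as p53. These are properties of the proteins, and the arrays measured transcripts.

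On each array 64.4% to 73.9% of gene spots stood well above background, without any saturation. The file headers put KO replicates 1 and 2 and WT replicates 2 and 3 under one scan time stamp (scan 1) and KO replicate 3 and WT replicate 1 under another (scan 2). All 21 kidney markers on a list of nephron, duct and endothelial genes were detected on all 6 arrays. Of their 25 probes 17 had a negative difference, against 47.2% of all probes tested. The 25 differences ran from -1.50 to 0.69. The smallest p was that of Cited1 of nephron progenitors (-0.68 ± 0.20), and none passed the test. The other progenitor markers differed in sign: Meox1 gave -0.63 ± 0.24, 1 of 2 Six2 probes -0.66 ± 0.33 (A_55_P2033308) and Eya1 0.69 ± 0.44. Of 22 measured markers of other cells and organs 13 were detected on all 6 arrays, while Apoa1 (liver), Ckm (skeletal muscle), Ucp1 (brown fat), Amh (gonad) and Cyp11a1 (adrenal) were above background on none. Of the 19 tested probes of that list 15 had a negative difference, against 47.2% of all probes tested. Some of the 19, such as those of Cidea and Cyp11b1, were tested only through the WT arrays. That filter leans the count to the negative side, so it is a description only. Of the macrophage markers, Cx3cr1 gave -1.58 ± 0.21 (A_55_P2007964, limma adjusted p = 0.0599) and C1qa -0.77 ± 0.21. Among the 3 Csf1r probes, the 1 with the smallest p gave 0.65 ± 0.26 (A_55_P2025073). The other Csf1r probes and those of Adgre1 are given only in the sum below. A second Cx3cr1 probe was well above background on all 3 arrays labelled WT and on 0 labelled KO. With scan as a block the 2 Cx3cr1 probes of the list passed, of which the second was tested only through the WT arrays. Summed over the 8 probes of Csf1r, Adgre1, C1qa and Cx3cr1, the signal was 4.93 to 5.27 times the array's 75th percentile on the arrays labelled KO and 5.26 to 6.40 times on those labelled WT. The part of other cells in the results below was not tested. The Y-linked gene Eif2s3y was not above background on WT replicate 2, and the X-inactivation RNA Xist was above it on WT replicates 1 and 2, although all samples are labelled male. Values against WT replicate 3 alone are therefore given for Usp10 and for each probe of G3bp1, G3bp2, Caprin1 and Fmr1.

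The Usp10 signal was higher, not lower, on the arrays labelled KO. In log2 units above the 75th percentile of its array, its single probe, which targets NM_009462, read 3.64, 3.37 and 3.56 on KO replicates 1 to 3 and 3.01, 3.12 and 2.95 on WT replicates 1 to 3. The lowest array labelled KO lay above the highest labelled WT. The mean difference was 0.50 ± 0.16 (SE, n = 3 per group), a 1.41-fold higher signal, with a 95% interval from 1.09-fold to 1.84-fold before any adjustment. Here and throughout, ± values and intervals use limma's moderated SE, which draws on the variance of all probes tested. The Usp10 difference did not pass limma over all 25826 probes tested (adjusted p = 0.425). With 3 arrays against 3, the exact two-sided permutation test gave p = 0.1, the smallest this design allows. The knockout label is thus not matched by a lower signal at this probe. The sources used here do not give where the probe lies relative to the deleted part. Every direction below rests on the labels KO and WT.

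The higher Usp10 signal was of similar size in each part of the data. Within scan 1 the log2 difference was 0.47 and within scan 2 it was 0.55, while the mean scan difference of the probe was 0.013. Against WT replicate 3 alone it was 0.58, and with scan as a block and without WT replicate 2 it was 0.56. The limma adjusted p of Usp10 ran from 0.167, under that last setting, to 0.922 over the 20 alternatives that gave a test. Raw Usp10 intensities ran from 3162 to 5902 units, and 85.3% of all probes tested had a smaller absolute difference.

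**Figure D1:**
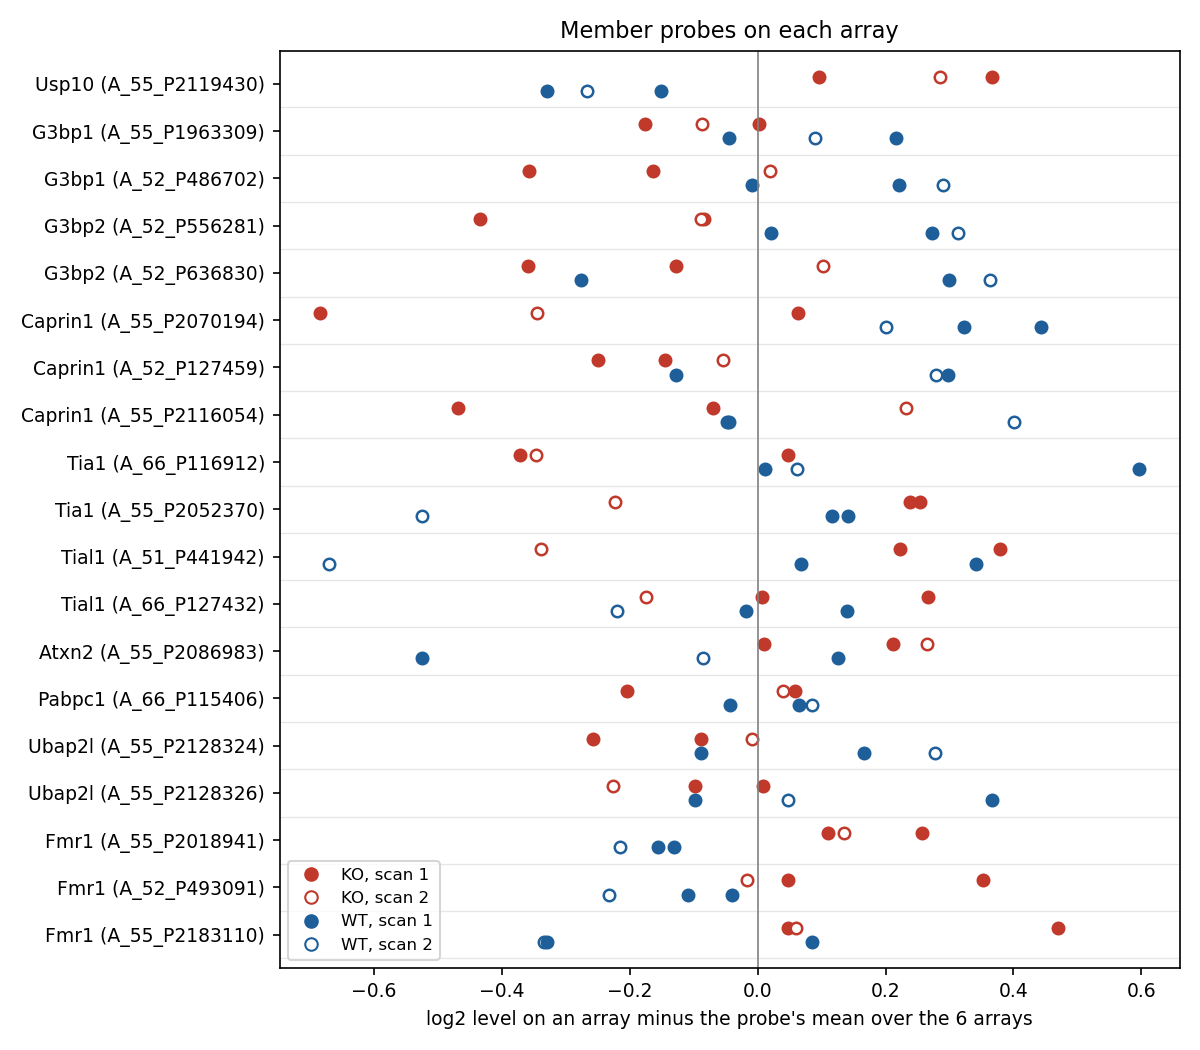
Log2 level of each of the 19 member probes on each array, as the deviation from the probe's mean over the 6 arrays (x axis, log2 units); red points are KO and blue points WT, filled for scan 1 and open for scan 2. The 3 KO points of Usp10 all lie to the right of the 3 WT points, while the brightest Caprin1 probe and 1 G3bp2 probe show KO to the left of WT.

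The genes of the G3BP proteins, which USP10 binds, and of Caprin-1, which binds the same G3BP surface, stood on the other side. All 7 probes of G3bp1, G3bp2 and Caprin1 had a negative difference, with a median of -0.30 on the log2 scale, where 47.2% of all probes tested had a negative difference, 52.8% a positive one, and the median of all was 0.022. Probes of 1 gene read the same RNA, so these are 3 genes and not 7 separate observations. None passed limma over all probes, where 0.0736% of probes did (0.0155% higher and 0.0581% lower), and their lowest adjusted p was 0.436. The grouping of these genes was made with their values known.

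Caprin1 encodes an RNA-binding protein that joins G3BP in the granule. Its brightest probe (A_55_P2070194) read 2.49, 1.74 and 2.08 on KO replicates 1 to 3 and 2.63, 2.75 and 2.87 on WT replicates 1 to 3. The groups did not overlap, but KO replicate 1 came close to the WT arrays and KO replicate 2 lay lowest. The difference was -0.64 ± 0.22 (SE), with a 95% interval from -1.16 to -0.13 (limma adjusted p = 0.436). It was -0.69 within scan 1, -0.55 within scan 2 and -0.77 against WT replicate 3 alone. Leaving out KO replicate 2 gave -0.46 and leaving out KO replicate 1 gave -0.84. The other 2 Caprin1 probes differed by -0.30 ± 0.18 (A_52_P127459) and -0.21 ± 0.24 (A_55_P2116054), and their groups overlapped. Against WT replicate 3 alone they stood at -0.45 and -0.057. From array to array the brightest probe correlated with the first of these at a Pearson r of 0.50 and with the second at -0.025, and these 2 with each other at 0.64 (over the 6 arrays, a description only).

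G3bp2 was read by 2 probes. The brighter one (A_52_P556281) read 2.05, 1.70 and 2.05 on KO replicates 1 to 3 and 2.45, 2.15 and 2.41 on WT replicates 1 to 3, without overlap. Its difference was -0.40 ± 0.18 (limma adjusted p = 0.493), and it was -0.41 within scan 1, -0.40 within scan 2 and -0.47 against WT replicate 3 alone. The other probe (A_52_P636830) differed by -0.26 ± 0.23, its groups overlapped, and its scan difference of 0.35 was larger than its genotype difference. Against WT replicate 3 alone it stood at -0.43.

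G3bp1 is the paralogue most used to mark stress granules, and both of its probes had groups that overlapped. The brighter probe (A_55_P1963309) read 2.55, 2.37 and 2.46 on the arrays labelled KO and 2.64, 2.76 and 2.50 on those labelled WT, so that KO replicate 1 lay above WT replicate 3. The difference was -0.17 ± 0.16, with a 95% interval from -0.55 to 0.20, and only -0.041 against WT replicate 3 alone. The dimmer probe (A_52_P486702) differed by -0.33 ± 0.18, and its groups overlapped by 1 pair of arrays, KO replicate 3 (-1.48) and WT replicate 2 (-1.50). Against WT replicate 3 alone it stood at -0.39.

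**Figure D2:**
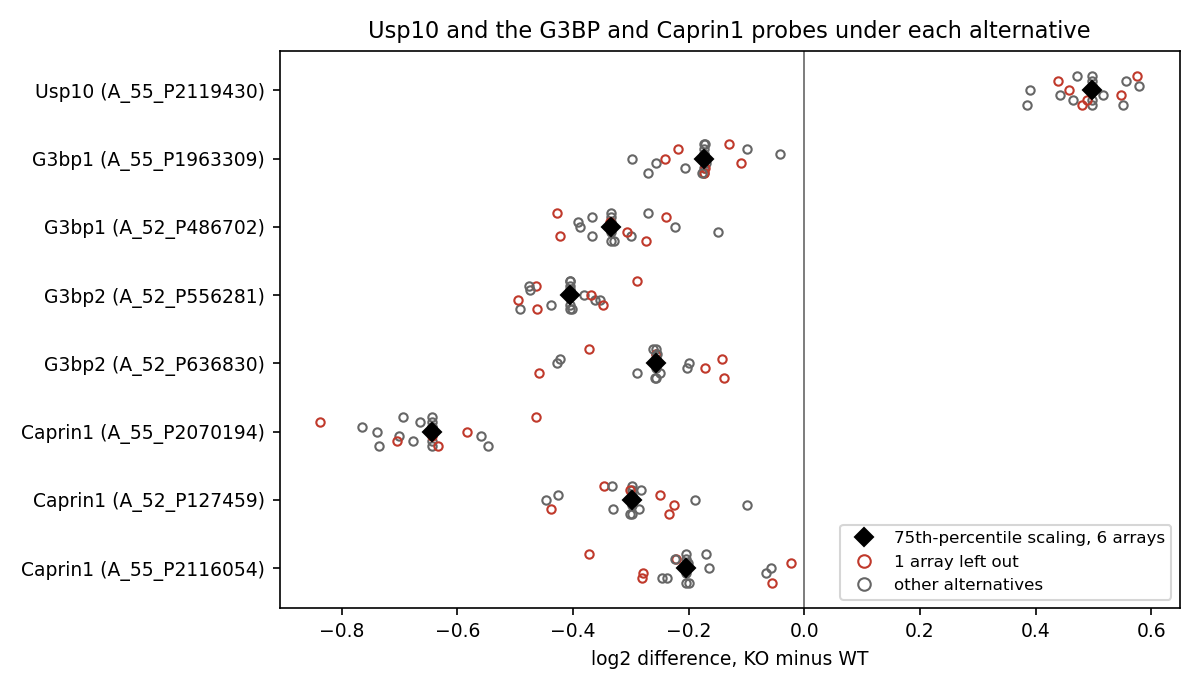
Log2 difference KO minus WT (x axis) of the Usp10 probe and the 7 probes of G3bp1, G3bp2 and Caprin1; the black diamond is the value from all 6 arrays, red circles leave out 1 array each and grey circles are the other alternatives. The Usp10 values lie between 0.38 and 0.58, and every value of the other 7 probes lies below 0, the nearest at -0.022 for Caprin1 probe A_55_P2116054 without KO replicate 1.

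In every alternative run Usp10 had a positive difference and all tested probes of these 3 genes a negative one. No alternative brought any of them past the threshold. With scan as a block the lowest adjusted p among them was 0.224 for Usp10 and 0.242 for Caprin1. For Usp10, the brightest Caprin1 probe and the brighter G3bp2 probe the groups did not overlap. Leaving out arrays or taking either scan alone could therefore not change their sign. The groups of the other probes of these 3 genes overlapped, and their differences stayed negative too. For some of them, such as G3bp1 probe A_52_P486702, leaving out a single array could not have changed the sign either. All alternatives reuse the same arrays, so the unchanged sign is a description and not separate evidence. Changes of filter, outlier handling, variance model or block left the Usp10 difference at 0.50 when all arrays were kept. Changes of scaling and background correction gave 0.38 to 0.47 for Usp10.

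The promoters of the 2 members with the smallest p, Usp10 and Caprin1, are shown because their signals lay on opposite sides. Each is the 250 bases before the annotated start in RefSeq on GRCm38.p6, printed 5′ to 3′ along the gene's strand: chr8:119910110-119910359 on the plus strand for Usp10 and chr2:103797079-103797328 on the minus strand for Caprin1. Capitals mark matches on either strand to any of 7 motifs, of which only GGGCGG (the Sp1 box) matched here.
Usp10: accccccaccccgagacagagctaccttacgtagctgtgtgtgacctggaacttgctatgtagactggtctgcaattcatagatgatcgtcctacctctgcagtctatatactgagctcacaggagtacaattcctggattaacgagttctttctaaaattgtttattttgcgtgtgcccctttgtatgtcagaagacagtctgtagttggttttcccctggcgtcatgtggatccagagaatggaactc
Caprin1: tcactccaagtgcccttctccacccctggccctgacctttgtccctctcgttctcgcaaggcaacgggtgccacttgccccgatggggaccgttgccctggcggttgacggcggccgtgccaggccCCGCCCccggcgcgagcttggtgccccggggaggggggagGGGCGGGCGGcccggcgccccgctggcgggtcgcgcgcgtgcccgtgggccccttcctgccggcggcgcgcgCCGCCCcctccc
The Caprin1 window has a GC content of 78% and held 4 matches to the Sp1 box, 2 of them overlapping. The Usp10 window has a GC content of 46.4% and held none of the 7. The Sp1 box was found in 32.7% of the 32851 promoter windows of that length and in 10 of 15 windows of the 9 members listed there. Some of the 15 overlap, such as the 2 of Ubap2l and the 2 of Fmr1, so matches can be counted more than once. The median GC content of all windows was 52.4%, and GC content was not matched. No member window held the letters of the interferon-stimulated response element (2.98% of all windows), the glucocorticoid response element (0.387%) or a CRE (TGACGTCA, 1.55%). The other motifs searched were CCAAT, found in 33.8% of all windows and 2 of the 15, the ETS core CCGGAAG, found in 6.91% and 1, and TATAAA, found in 12.4% and 2. A match is a description of letters, and these annotated starts need not be the ones used in newborn kidney.

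Among the RNA-binding members, Fmr1 lay higher on the arrays labelled KO with all 3 of its probes. Fmr1 encodes FMRP, an RNA-binding repressor of translation found in stress granules, and lies on the X chromosome. Its brightest probe (A_55_P2018941) read 1.19, 1.34 and 1.22 on KO replicates 1 to 3 and 0.87, 0.95 and 0.93 on WT replicates 1 to 3, without overlap. The difference was 0.33 ± 0.15 (limma adjusted p = 0.493), with 0.33 within scan 1 and 0.35 within scan 2. The others differed by 0.25 ± 0.17 (A_52_P493091, no overlap) and 0.38 ± 0.21 (A_55_P2183110, overlapping by KO replicates 1 and 3 and WT replicate 2). Over the 6 arrays the 3 probes followed each other with Pearson r between 0.85 and 0.93, the closest match of any member read by several probes. On WT replicate 2, the array with Xist and no Y-linked signal, the 3 probes were the highest of the WT arrays. On WT replicate 1, which also had Xist above background, they were the lowest. Against WT replicate 3 alone the differences were 0.32 (A_55_P2018941), 0.24 (A_52_P493091) and 0.52 (A_55_P2183110).

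Atxn2 encodes ataxin-2, which binds poly(A)-binding protein. Its probe read 2.94, 3.14 and 3.19 on KO replicates 1 to 3 and 2.84, 3.05 and 2.40 on WT replicates 1 to 3. The groups overlapped, and WT replicate 3 stood apart as the lowest. The difference of 0.32 ± 0.21 was therefore 0.14 without WT replicate 3 and 0.69 against that array alone, and neither value passed. Pabpc1 encodes the main cytoplasmic poly(A)-binding protein and gave the most even signal among the members, between 4.37 and 4.66 on all arrays. Its difference was -0.071 ± 0.16, with a 95% interval that runs from 1.36-fold lower to 1.24-fold higher. 

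Tia1 and Tial1 encode the related RNA-binding proteins TIA-1 and TIAR, which bind AU-rich and U-rich RNA and promote granule assembly. The 2 Tia1 probes pointed in opposite directions, -0.45 ± 0.22 (A_66_P116912) and 0.18 ± 0.25 (A_55_P2052370), and correlated at 0.098 over the 6 arrays. On the first, WT replicate 3 (-1.47) was well above the other 5 arrays (-2.44 to -2.01). Tia1 was the only member gene whose probes differed in sign, so no direction is given for it. The 2 Tial1 probes differed by 0.17 ± 0.31 (A_51_P441942) and 0.065 ± 0.19 (A_66_P127432). The first of these differed more between scans than between the labels. It read 1.79 on KO replicate 3 and 1.46 on WT replicate 1, the arrays of scan 2. On the 4 arrays of scan 1 it read 2.20 to 2.51. That scan difference, -0.76, was larger in size than that of 89.7% of all probes tested. Scan 2 held no other animals, so scan and animal cannot be told apart.

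Ubap2l encodes an RNA-binding protein needed for efficient granule assembly upstream of G3BP. Its probes differed by -0.24 ± 0.18 (A_55_P2128324) and -0.21 ± 0.18 (A_55_P2128326), and on both the KO and WT arrays overlapped. With normexp background correction these differences were -0.031 and -0.017 under 75th-percentile scaling, where the median of all probes was 0.15, and -0.13 and -0.13 under quantile normalisation, where it was -0.013. Both probes were dim, with raw intensities between 68.6 and 186 units.

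**Figure D3:**
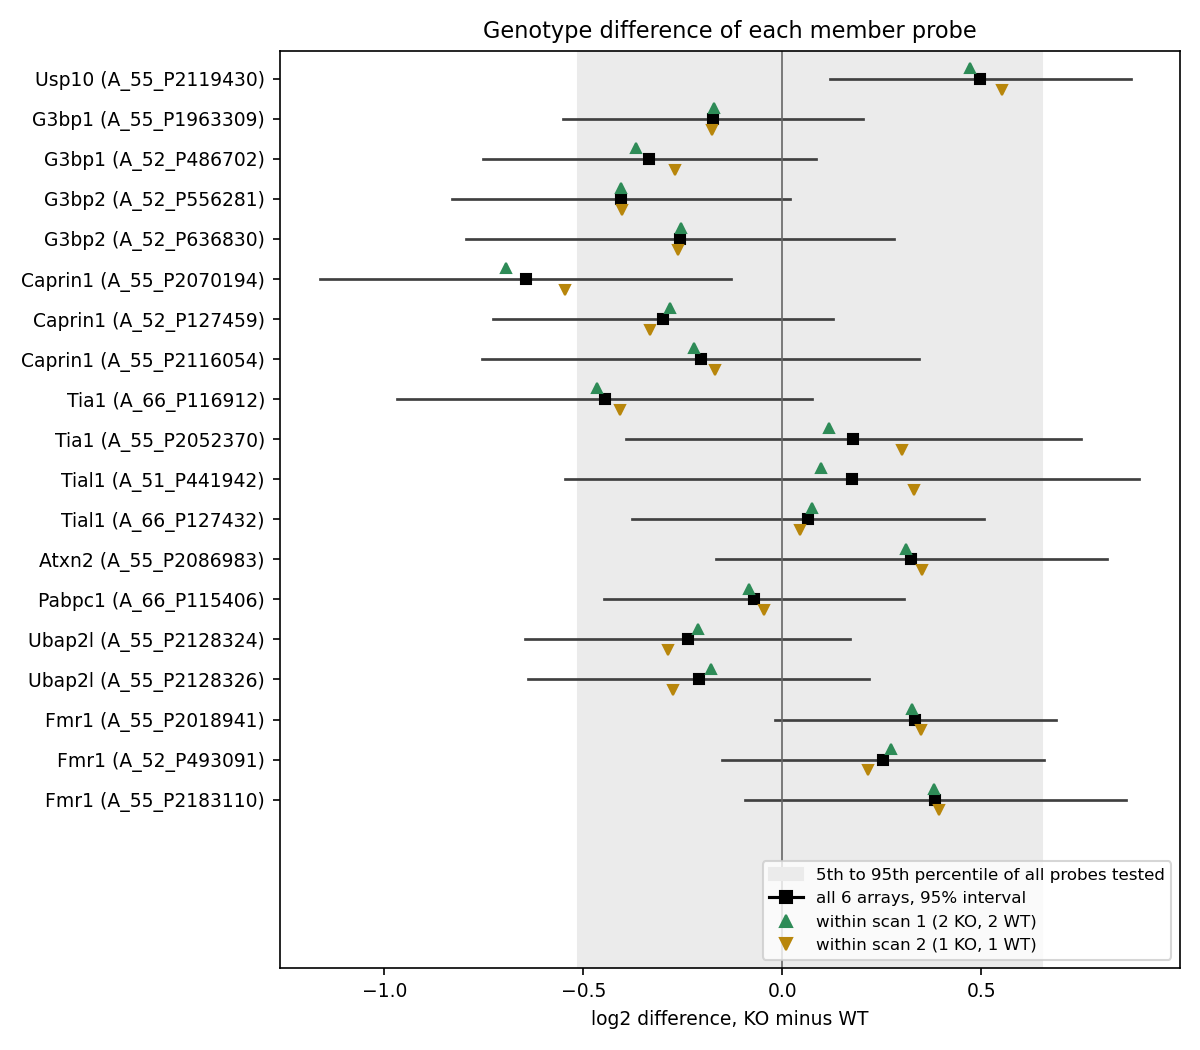
Log2 difference KO minus WT (x axis) of the 19 member probes; squares with lines give the value and 95% interval from all 6 arrays, green triangles the difference within scan 1, brown triangles that within scan 2, and the grey band the 5th to 95th percentile of all 25826 probes tested (-0.51 to 0.65). All members but the brightest Caprin1 probe lie inside the band, and the intervals of Usp10 and that Caprin1 probe leave out 0.

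Of the 19 member probes none passed an adjusted p of 0.05 in limma, where 19 of all 25826 probes did (0.0736%). The smallest adjusted p of the 19 was 0.425. At an unadjusted p under 0.05 there were 2, Usp10 on the higher side and the brightest Caprin1 probe on the lower, against 10.2% of all probes tested (5.92% higher and 4.28% lower). The groups did not overlap for 3 probes that were higher on the arrays labelled KO (Usp10 and 2 of Fmr1) and 2 that were lower (1 each of G3bp2 and Caprin1), against 9.83% and 8.02% of all probes. Without regard to direction, 17.8% of all probes had groups that did not overlap. The share at an unadjusted p under 0.05, 10.5% of the members, was near that of all probes. Their median difference was -0.17 and their absolute differences had a median of 0.26, against 0.22 for all probes.

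The precision was limited by 3 arrays per group, with a median SE of 0.22 over all probes. The unadjusted 95% interval stayed within a 2-fold change either way for 18 of the 19 member probes, all but the brightest Caprin1 probe. Differences between scans were common but did not dominate here: 6 of 19 member probes had a larger scan than genotype difference, against 55.5% of all probes tested. With scan as a block 66 probes passed over the whole array (0.256%), and none of the 19 members.

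Transcripts of the wider stress granule machinery were tested in the same way. Across 7 lists, covering relatives of the members, other granule RNA-binding proteins, initiation factors, the eIF2 alpha kinases and phosphatase, processing bodies, clearance factors and USP10 substrates, 162 genes were tested with 224 probes and none passed limma. At an unadjusted p under 0.05 there were 10, or 4.46%, against 10.2% of all probes tested. Their median difference was 0.0010.

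The list of close relatives of the members, which also held Rasa1, was read by 13 probes. None reached an unadjusted p of 0.05, against 10.2% of all probes tested, a count that says little with so few probes. The list's median was -0.0022. The 2 FMRP relatives Fxr1 and Fxr2 differed by between -0.079 and -0.014, and the ataxin-2 relative Atxn2l by 0.0020 ± 0.17. The smallest p in the list was that of Pabpc1l, a poly(A)-binding protein of germ cells (0.38 ± 0.20, limma adjusted p = 0.523). Usp13, a deubiquitinase that USP10 acts with, differed by -0.30 ± 0.25 with 1 probe and -0.0022 ± 0.22 with the other, and Caprin2 by 0.18 ± 0.17.

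Of the other granule RNA-binding proteins, 1 of 59 probes had an unadjusted p under 0.05, against 10.2% of all probes tested. This was a probe of Stau2, which encodes a double-stranded RNA-binding protein of transport granules (0.51 ± 0.16, limma adjusted p = 0.425), while the other Stau2 probe differed by -0.14 ± 0.15. Prrc2c (0.38 ± 0.17), the mRNA-binding gene Igf2bp1 (-0.38 ± 0.19) and the cold-induced gene Cirbp (0.41 ± 0.20) came next. The list's median was -0.064.

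Among initiation factors and ribosomal proteins that stall in granules, the median was 0.010. Of their 48 probes 3 (6.25%) had an unadjusted p under 0.05, against 10.2% of all probes tested. These were Eif2s3x, the gamma subunit of eIF2 (-0.52 ± 0.17), Eif2b1, a subunit of its exchange factor (-0.40 ± 0.16), and Eif5, which activates its GTPase (0.52 ± 0.21), with limma adjusted p between 0.425 and 0.482. Second probes of Eif2s3x and Eif5 gave 0.31 ± 0.25 and 0.14 ± 0.16, so the Eif2s3x probes disagree in sign.

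The kinases that set off granule assembly by phosphorylating eIF2 alpha had differences of both signs. Eif2ak3 (PERK, activated by unfolded protein in the endoplasmic reticulum) read 1.29, 1.55 and 1.44 on KO replicates 1 to 3, against 0.89 on WT replicate 1 and 0.39 on WT replicate 3, with WT replicate 2 between the KO arrays and WT replicate 1. The groups did not overlap, with a difference of 0.63 ± 0.22 (limma adjusted p = 0.445). Eif2ak4 (GCN2, activated by amino acid shortage) differed by 0.64 ± 0.27 and its groups also did not overlap, though KO replicate 1 and WT replicate 1 were nearly equal. Eif2ak2 (PKR, activated by double-stranded RNA and itself induced by interferon) had the opposite sign, -0.50 ± 0.24, and Eif2ak1 (HRI, activated by haem shortage) differed by -0.16 ± 0.22. The phosphatase subunit Ppp1r15a, which reverses the phosphorylation, differed by 0.18 ± 0.24, and Ddit3, a transcription factor induced downstream of it, by 0.10 ± 0.19. Against WT replicate 3 alone the differences were 1.04 for Eif2ak3, 1.07 for Eif2ak4 and -0.096 for Eif2ak2. None of the 17 probes of this list passed, and 2 (11.8%) had an unadjusted p under 0.05, against 10.2% of all probes tested. The groups did not overlap for 3 of the 17 (3 higher, 0 lower), against 17.8% of all probes tested.

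**Figure D4:**
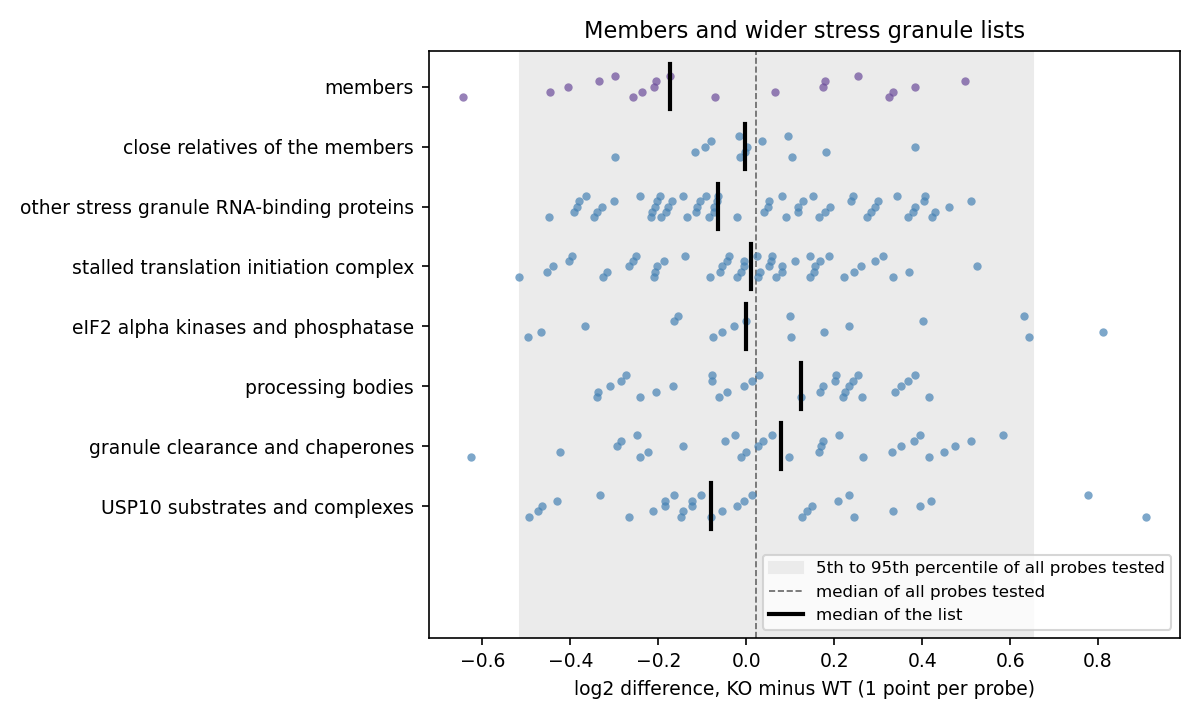
Log2 difference KO minus WT (x axis, 1 point per probe tested) for the members and 7 wider lists; black bars are list medians, the dashed line is the median of all probes tested and the grey band their 5th to 95th percentile. List medians lie between -0.17 for the members and 0.13 for processing bodies.

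Processing bodies hold mRNA decay enzymes and exchange RNA with stress granules. Of their 31 probes 0 had an unadjusted p under 0.05, against 10.2% of all probes tested, and the median was 0.13. The smallest p were those of the deadenylase subunit gene Cnot6l (0.37 ± 0.20) and of Ago1 (0.41 ± 0.23) and Ago2 (-0.27 ± 0.16), which carry small RNAs. Second probes of Ago1 (-0.31 ± 0.26) and Ago2 (0.34 ± 0.23) had the opposite sign, and that of Cnot6l gave 0.013 ± 0.17. Of the factors that clear granules or fold their proteins, 3 of 30 probes had an unadjusted p under 0.05, against 10.2% of all probes. These were Tnpo1, a nuclear import receptor (0.58 ± 0.18), Hdac6, a deacetylase of the cytoplasm that binds ubiquitin (0.48 ± 0.20), and Trim21, an interferon-induced ubiquitin ligase (-0.63 ± 0.20), with limma adjusted p between 0.419 and 0.486. The other Tnpo1 probe (A_52_P480939), which was the brighter, gave only 0.17 ± 0.15, and the other Hdac6 probe gave 0.42 ± 0.24. Of 31 probes for proteins described as USP10 substrates or their complexes, 1 had an unadjusted p under 0.05, against 10.2% of all probes. This was a probe of the NF-kB regulator Ikbkg (-0.47 ± 0.18, limma adjusted p = 0.456). Trp53, which encodes the USP10 substrate p53, differed by -0.43 ± 0.22 and its ligase gene Mdm2 by 0.39 ± 0.22.

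The probes most like Usp10 over the 6 arrays were ranked among 17915 named probes above background on all arrays. The closest by Pearson r were Klhl15 (0.994), Zfp365 (0.993), Ing3 (0.990), Rgcc (0.989) and Xlr3b (0.989). The most opposed were Traf5 (-0.996), Nos3 (-0.990) and Gbp7 (-0.989). With 6 arrays such values are a description: 1.14% of the ranked probes had r above 0.9, and the ranking takes in the difference between the labels. Xlr3b, a member of an X-linked multicopy family whose copies a probe may not tell apart, read -1.06, -1.89 and -1.61 on KO replicates 1 to 3 and -3.96, -3.27 and -4.26 on WT replicates 1 to 3, a difference of 2.31 (limma adjusted p = 0.0662). Gbp7, an interferon-induced GTPase, differed by -1.55 (adjusted p = 0.0968). Among the members, the probe most like Usp10 was the brightest of Fmr1 (r = 0.83) and the most opposed A_52_P127459 of Caprin1 (r = -0.81).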

How the data were processed

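Kidney RNA of 6 neonates was hybridised to single-colour (Cy3) arrays, per the labels. The authors' deposited files hold the linear intensity of each spot, background-subtracted and not normalised between arrays. Their headers name Agilent Feature Extraction 11.0.1.1, whereas the submitters' processing notes name 9.1. Processed intensities were put on a log2 scale and centred on the array's 75th percentile over all 43020 gene spots. Outlier spots were then dropped and replicate spots were averaged by probe. By accession, 27234 of 39429 probes (69.1%) matched a RefSeq gene of GRCm38.p6, used for names only since the array design is on mm9. Of the unnamed probes 3218 carry Ensembl accessions, so further probes of a member may be among them.

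A probe was tested, on its own, if every array of 1 or both groups had it well above background, with limma 3.58.1 in R 4.3.3 (lmFit, eBayes, two-sided, Benjamini-Hochberg over 25826 probes, threshold 0.05), without a block. The code was tested on simulated data. The 3 neonates of a group are independent animals, per the series' design text. The rule for naming took all member probes, up to 4 genes of smallest p per list, cell type markers, and the 5 genes most and 3 least correlated with Usp10. A few further genes of the lists were named after their values were seen. These were the relatives Fxr1, Fxr2 and Atxn2l, Rasa1 of the same list, the kinase Eif2ak1, Ppp1r15a, Ddit3 and second probes. The members and lists were chosen with earlier results of these data known. Alternatives changed the scaling, background correction, filter, probe choice, outlier handling, variance model, weights, blocks and arrays.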

Additional observations from a re-analysis of the deposited data

How the results depend on the processing

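Of 19 member probes 0 passed limma in each of the 20 alternative fits, with 0 to 8 at an unadjusted p under 0.05. The highest of these counts came with scan as a block and without WT replicate 2, where 24.0% of all probes tested reached that p. No probe of the 7 lists passed in any of them either. Some member differences near 0 changed sign. The Tial1 probe A_66_P127432 stood at -0.0047 with quantile normalisation, -0.0038 and -0.033 with normexp and either scaling, and -0.11 against WT replicate 3 alone. Tia1 A_55_P2052370 was -0.052 against WT replicate 3 alone. Leaving out 1 array gave -0.051 to 0.17 for that Tial1 probe (below 0 without KO replicate 2 and, at -0.028, without WT replicate 1), -0.12 to 0.39 for Tial1 A_51_P441942 and -0.039 to 0.34 for Tia1 A_55_P2052370 (both below 0 without WT replicate 1). Pabpc1 stood at 0.013 without KO replicate 2.

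The count over all probes, 19, was unstable. It was 0 with normexp and quantile normalisation (2724 at an unadjusted p under 0.05), 0 with no filter on dim probes (2471), 1 with detection on all 6 arrays required, 53 with an intensity trend and 42 with array weights. It was 66 with scan as a block, 0 with that block and no WT replicate 2 (6207 unadjusted), and 0 against WT replicate 3 alone (2196 unadjusted). Leaving out 1 array gave 0 to 24, namely 24 without KO replicate 3, 1 without WT replicate 3 and 0 when replicate 1 or 2 of either group was left out. At an adjusted p of 0.10 it was 82, at an unadjusted p of 0.05 it was 2635, and 4609 probes had groups without overlap. With replicate number as a block it was 0 (1898 unadjusted). The labels do not say that these numbers pair the arrays. Deviations of KO and WT replicate 1 from their group means correlated at -0.402, replicates 2, both of scan 1, at 0.473 and replicates 3 at -0.598. KO replicate 3 and WT replicate 1, both of scan 2, correlated at 0.882. Replicates 1 and 3 each span both scans, so these values cannot decide on pairing. The cause of the changes in the count was not tested.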

Other observations

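A few probes on the stress granule lists spread over the arrays far more than any member, in an order that is not that of the labels. A probe of Notch1, which encodes a receptor reported as a USP10 substrate (A_55_P2171897), read 3.80, 5.82 and 3.17 on KO replicates 1 to 3 and 2.17, 4.19 and 3.70 on WT replicates 1 to 3. A probe of the chloride channel gene Cftr (A_55_P2134022) read 1.59, 3.86 and -0.25 on KO replicates 1 to 3 and -0.73, 2.10 and 1.51 on WT replicates 1 to 3. A probe of Impact, which encodes an inhibitor of GCN2 (A_66_P108138), ran from -4.15 on WT replicate 1 to -0.16 on KO replicate 2. All 3 were highest on KO replicate 2 and lowest on the 2 arrays of scan 2, and the Cftr and Impact probes followed the Notch1 probe with Pearson r of 0.970 and 0.969 over the 6 arrays, a description only. The second Impact probe (A_51_P483220) stayed between 0.65 and 1.39 and the second Notch1 probe (A_55_P2047168) was not well above background on 2 arrays. Over all probes above background on all 6 arrays, 4.24% (1030) spanned more than 2 on the log2 scale, and 330 of these followed the Notch1 probe with r above 0.9. Of the 243 probes of the members and lists 3 spanned that much. Differences of the Notch1, Cftr and Impact probes between the labels (0.91 ± 0.75, 0.78 ± 1.08 and 0.81 ± 0.94, SE) did not pass limma (adjusted p between 0.659 and 0.796). What these probes share was not tested.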
